A study of Homo sapiens with 15 samples.

Results

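The 49 genes described here encode the machinery of DNA replication and the switch from G1 into S phase, and they were chosen by name. All 49 were measured, out of 18377 genes with 1 symbol on the arrays. They were set into 4 roles. The origin and helicase role has 19 genes (ORC1, ORC2, ORC6, CDC6, CDT1, MCM2 to MCM7, MCM10, CDC7, DBF4, CDC45 and GINS1 to GINS4). The polymerase and fork role has 21 (PCNA, RFC2 to RFC5, RPA1 to RPA3, POLA1, POLA2, POLD1, POLD3, POLE, POLE2, PRIM1, PRIM2, FEN1, LIG1, CLSPN, CHAF1A and CHAF1B). Nucleotide supply has 4 (RRM1, RRM2, TYMS and TK1), and the cyclin E and G1/S regulators number 5 (CCNE1, CCNE2, E2F1, E2F2 and CDC25A).

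In G1 the origin recognition complex, CDC6 and CDT1 load the MCM2 to MCM7 helicase onto DNA, and at S phase the CDC7 and DBF4 kinase, CDC45 and the GINS complex switch it on. Polymerase alpha and primase then start each strand, polymerases delta and epsilon extend it behind the sliding clamp PCNA, and ribonucleotide reductase, thymidylate synthase and thymidine kinase supply the building blocks. Cyclin E and the phosphatase CDC25A activate the kinase that starts S phase, and E2F factors drive transcription of most of these genes, so that their messenger RNA is commonly read as a sign of proliferating cells.

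Total RNA of PC3 and DU145 cells, 2 prostate cancer lines with a bone and a brain metastasis as their labelled origins, was profiled on 15 Affymetrix Human Gene 1.0 ST arrays. Cells of each line carried a miR-224 mimic, a miR-452 mimic or a scrambled mimic (Scrambled no. 2 of the labels), each given at 20 nM by reverse transfection with the lipid reagent Lipofectamine, or were left untransfected, so that untransfected cells lacked both the mimic and the transfection reagent. A mimic is a synthetic RNA that supplies a microRNA to the cell, and RNA was taken 48 h after transfection. Every group had 2 arrays, lettered a, b or c as in the array titles, except the DU145 scrambled group, which had 1 because its partner array was left out by the authors for bad performance.

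The labels give the mimics as miR-224 and miR-452 without an arm. The 5p mature sequences below, from the RefSeq annotation of GRCh38.p14, show the microRNAs that carry these names, with the seed (bases 2 to 8) in capitals. Both genes lie on the minus strand, at chrX:151958628-151958652 and chrX:151959678-151959699. Their seeds have the same base at 2 of 7 positions, so they do not form a seed family.
hsa-miR-224-5p: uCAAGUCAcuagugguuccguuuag
hsa-miR-452-5p: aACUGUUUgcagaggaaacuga

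E2F factors bind sites that can be written as TTTCCCGC, TTTCGCGC, TTTGCCGC or TTTGGCGC, and the CCAAT box is another element common in cell cycle promoters. RefSeq promoter windows of GRCh38.p14, which run from 250 bases before to 50 bases after an annotated start, were found for 42 of the 49 genes, and both strands were searched. That start was the 5′ end of the gene in the RefSeq gene table for 38 of the 42, and lay downstream of it by 171 bases for RRM2, 454 for CDC45, 5080 for ORC1 and 93265 for PRIM2. The E2F letters occurred in 21 of the 42 windows, against 908 of all 27305 promoter windows (3.33%). CCAAT occurred in 23 of the 42 (54.8%), against 35.7% of all windows, and both motifs in 12 (28.6%), against 1.29%. By role, 9 of 16 origin and helicase windows, 8 of 18 polymerase and fork windows, 1 of 4 nucleotide windows and 3 of 4 cyclin and G1/S windows held the E2F letters. The 7 genes without a window were CCNE2, GINS4, MCM4, MCM5, POLD3, RPA2 and RPA3. The windows below are shown for 1 gene of each role that the results turn on, with matches in capitals. MCM2 is on the plus strand (chr3:127598161-127598460), with TTTCGCGC and, overlapping it on the other strand, GCGCGAAA just after the start. PRIM1 is on the minus strand (chr12:56752274-56752573) and has 1 CCAAT. RRM2 is on the plus strand (chr2:10122489-10122788), with 3 CCAAT and none of the E2F letters in this window. CDC25A is on the minus strand (chr3:48188368-48188667), with 2 CCAAT read as ATTGG and 1 TTTGGCGC.
MCM2: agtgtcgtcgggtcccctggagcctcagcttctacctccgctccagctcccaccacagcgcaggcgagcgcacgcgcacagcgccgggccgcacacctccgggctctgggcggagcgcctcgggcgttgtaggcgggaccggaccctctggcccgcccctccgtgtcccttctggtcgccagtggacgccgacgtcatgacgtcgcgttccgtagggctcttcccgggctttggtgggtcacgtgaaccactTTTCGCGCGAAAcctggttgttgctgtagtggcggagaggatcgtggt
PRIM1: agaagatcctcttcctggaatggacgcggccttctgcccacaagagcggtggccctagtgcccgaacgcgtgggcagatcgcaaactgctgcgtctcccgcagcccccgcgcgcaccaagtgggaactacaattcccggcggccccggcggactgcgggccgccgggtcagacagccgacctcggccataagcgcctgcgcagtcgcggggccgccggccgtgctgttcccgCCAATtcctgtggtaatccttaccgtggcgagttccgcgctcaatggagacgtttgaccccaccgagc
RRM2: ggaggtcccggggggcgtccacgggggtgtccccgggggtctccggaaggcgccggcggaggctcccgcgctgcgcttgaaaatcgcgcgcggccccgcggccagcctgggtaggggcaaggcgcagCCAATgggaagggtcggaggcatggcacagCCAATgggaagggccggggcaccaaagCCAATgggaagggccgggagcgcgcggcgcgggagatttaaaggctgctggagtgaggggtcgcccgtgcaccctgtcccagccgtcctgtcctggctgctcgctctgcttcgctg
CDC25A: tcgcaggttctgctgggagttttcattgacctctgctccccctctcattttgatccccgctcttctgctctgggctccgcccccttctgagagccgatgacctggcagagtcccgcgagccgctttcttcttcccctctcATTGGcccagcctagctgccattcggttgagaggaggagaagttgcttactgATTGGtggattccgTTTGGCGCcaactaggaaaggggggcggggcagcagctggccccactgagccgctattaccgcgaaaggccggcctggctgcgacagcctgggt

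The deposited values are log2 levels, which ran from 4.49 to 14.18. The median of a PC3 array was 6.94 to 7.05 and that of a DU145 array 6.51 to 6.67. Replicate arrays correlated with r of 0.992 to 0.998 across all features in 7 pairs. The number of arrays limits the precision. Separate cultures are not stated for the replicates, so the p-values below measure only the spread between these arrays. PC3 and DU145 arrays were normalized separately, so only changes within a line are set side by side. The spread of values over features was narrower on transfected arrays (SD 1.71 to 1.76 in PC3, 1.52 to 1.59 in DU145) than on untransfected arrays (1.78 to 1.81 in PC3, 1.65 in DU145). KRT8 and KRT18, keratins of epithelial cells, stood between percentiles 96.0 and 99.8 of all genes in both lines. Of the leukocyte markers PTPRC stood at or under percentile 7.58, CD3E at or under 22.3 and CD14 at or under 39.2, and of the endothelial markers PECAM1 stood at or under 23.2 and CDH5 at or under 28.03. Of the fibroblast markers DCN stood at or under percentile 5.14, whereas COL1A2 lay between 34.6 and 48.3 and COL1A1 between 51.2 and 73.9. EPCAM, another epithelial marker, ranged from 37.1 to 88.3. CDH1, the epithelial cadherin, ranged from percentile 33.9 to 46.5 in PC3 and from 81.6 to 86.3 in DU145, and KLK3, an androgen-driven prostate gene, lay between percentiles 17.6 and 31.5 in both.

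The mean level of the members was lower after every transfection than in untransfected cells. Their mean log2 level was 8.43 and 8.50 on the PC3 miR-224 arrays, 8.70 and 8.69 with miR-452, 8.69 and 8.61 with the scrambled mimic, and 9.02 and 8.96 in untransfected PC3 cells. In DU145 it was 8.24 and 8.23 with miR-224, 8.24 and 8.39 with miR-452, 8.36 with the scrambled mimic, and 8.57 and 8.58 in untransfected cells. In both lines every transfected array lay below both untransfected arrays. The miR-224 arrays were the 2 lowest in PC3, whereas in DU145 miR-452 array a was as low as they were. In such bulk RNA, fewer cells in S phase and less of these messages per cell cannot be told apart.

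**Figure D1:**
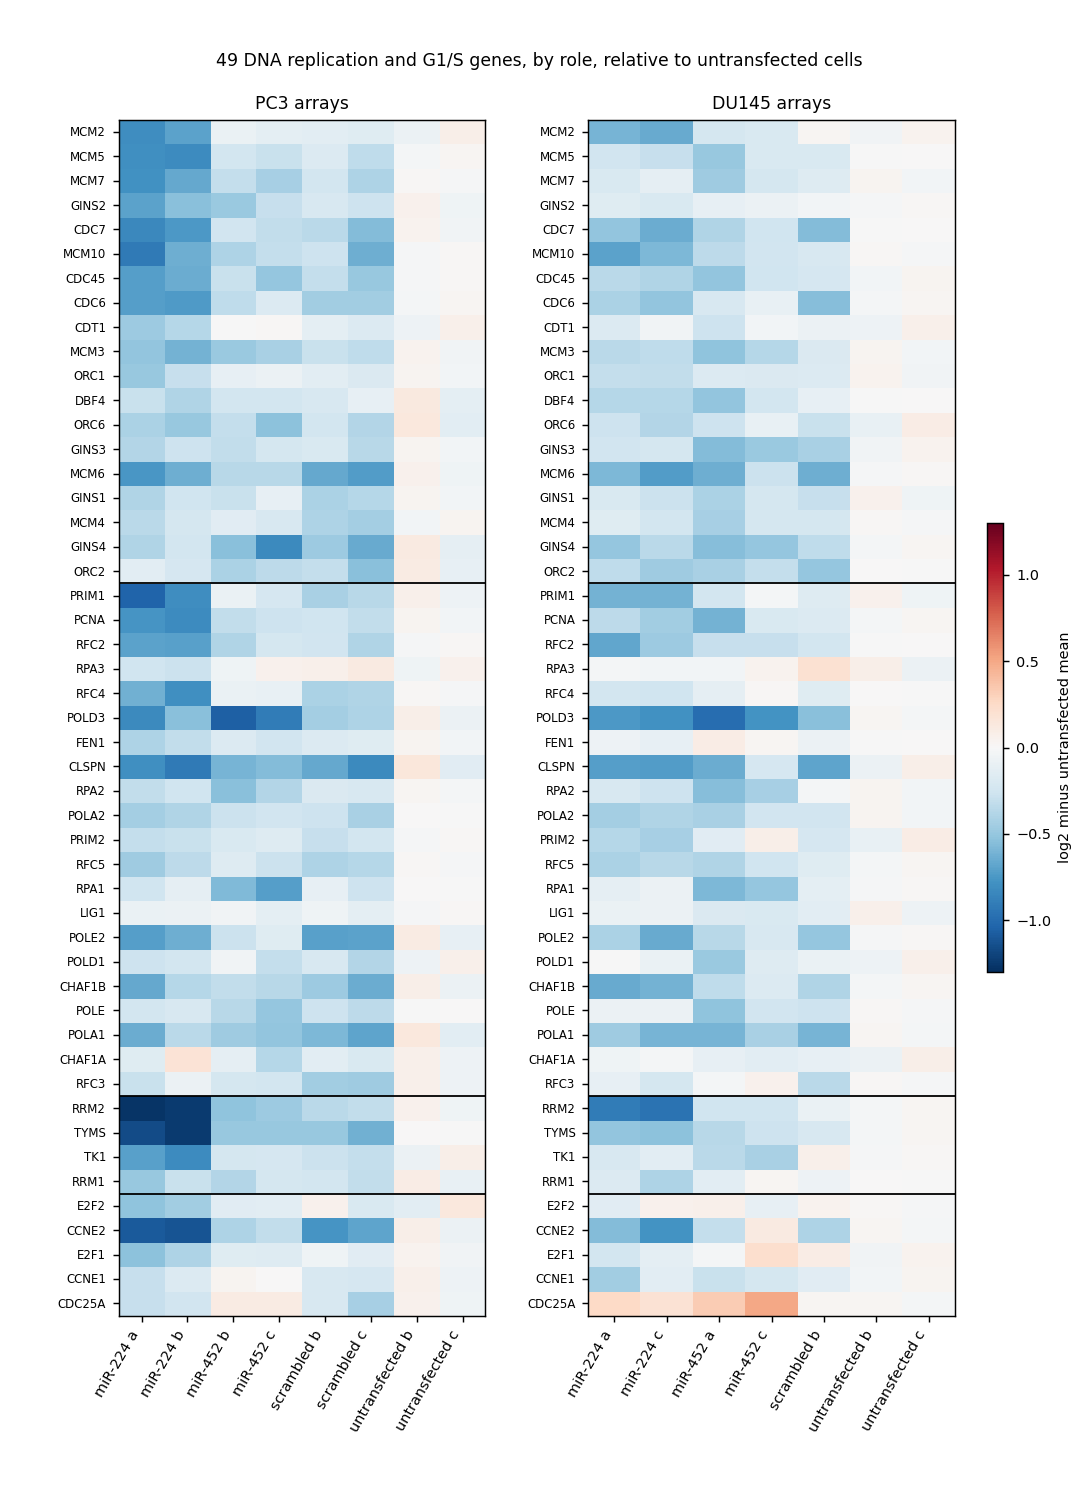
Colour gives the log2 level of each of the 49 genes on each array minus the mean of the untransfected arrays of the same line, with genes in rows, grouped from top to bottom as origin and helicase, polymerase and fork, nucleotide supply, and cyclin E and G1/S, and arrays in columns. Blue, below untransfected, covers most transfected columns of both lines and is deepest for RRM2 and TYMS on the PC3 miR-224 arrays.

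The comparison of miR-224 with the scrambled mimic asks what the microRNA adds to transfection itself. In PC3, 18 of the 49 genes fell and none rose (limma, adjusted p under 0.05 over all 18377 genes), which is 36.7% of them, where 4.65% of all genes fell and 12.1% rose. By role these were 7 of 19 origin and helicase genes (MCM2, MCM5, MCM7, GINS2, CDC7, CDC6 and CDT1), 5 of 21 polymerase and fork genes (PCNA, PRIM1, RPA3, RFC2 and RFC4), 3 of 4 nucleotide supply genes (RRM2, TYMS and TK1) and 3 of 5 cyclin E and G1/S genes (CCNE2, E2F1 and E2F2). The median log2 change of the 49 was -0.18, with -0.25 for origin and helicase genes, -0.03 for polymerase and fork genes, -0.56 for nucleotide supply and -0.36 for the cyclin E and G1/S genes. The median over all genes was -0.01. The count was 11, with 10 lower, without scrambled array b, and 10 without miR-224 array b.

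In DU145, RRM2 and MCM2 fell and no other member passed, 2 of 49 (4.08%), where 1.31% of all genes fell. The median log2 change of the 49 was -0.10. At an unadjusted p under 0.05, 7 of the 49 were lower and 0 higher, against 1337 and 1101 of all 18377 genes. This comparison rests on 1 scrambled array, which is assumed to vary like the other DU145 groups. The count was 1 without either of the miR-224 arrays and 4 without either of the miR-452 arrays, which enter only through the shared spread.

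For MCM2, a subunit of the replicative helicase, the PC3 levels were 8.35 and 8.46 with miR-224, 9.08 and 9.03 with miR-452, 9.02 and 9.01 with the scrambled mimic, and 9.08 and 9.23 in untransfected cells. In DU145 they were 8.14 and 8.09 with miR-224, 8.51 and 8.55 with miR-452, 8.77 with the scrambled mimic, and 8.70 and 8.79 in untransfected cells. In both lines the miR-224 arrays lay below every other array, while the scrambled arrays lay just under the untransfected ones in PC3 and inside their range in DU145. Against the scrambled mimic MCM2 fell by 0.61 ± 0.083 (SE) on the log2 scale in PC3 (adjusted p = 0.000728, limma) and by 0.66 ± 0.10 in DU145 (adjusted p = 0.0160). Its promoter is the one printed above with the overlapping E2F letters. The scrambled mimic against untransfected cells gave -0.14 ± 0.083 in PC3 and 0.03 ± 0.10 in DU145, which did not pass.

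CDC7 encodes the kinase that, with DBF4, activates the loaded helicase. In PC3 it read 7.23 and 7.32 with miR-224, 7.82 and 7.75 with miR-452, 7.71 and 7.50 with the scrambled mimic, and 8.11 and 8.02 in untransfected cells. In DU145 it read 7.38 and 7.25 with miR-224, 7.50 and 7.63 with miR-452, 7.33 with the scrambled mimic, and 7.89 and 7.90 in untransfected cells. The untransfected arrays were the highest in both lines, and the miR-224 arrays lay below the scrambled arrays in PC3 but on both sides of the scrambled array in DU145. CDC7 fell in all 6 comparisons of a transfected group with untransfected cells, by 0.28 to 0.79 on the log2 scale in PC3 and by 0.33 to 0.58 in DU145 (limma adjusted p at most 0.0445). Against the scrambled mimic it fell with miR-224 in PC3 (-0.33 ± 0.090, adjusted p = 0.0263), and the DU145 value was -0.02 ± 0.11.

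CDC6, a loader of the helicase at origins, read 8.85 and 8.82 in PC3 with miR-224, 9.23 and 9.38 with miR-452, 9.10 and 9.11 with the scrambled mimic, and 9.53 and 9.59 in untransfected cells. The 4 groups of PC3 did not overlap, with miR-224 lowest and untransfected highest. The DU145 levels of CDC6 were 9.31 and 9.21 with miR-224, 9.51 and 9.62 with miR-452, 9.16 with the scrambled mimic, and 9.69 and 9.75 in untransfected cells. In DU145 the scrambled array was the lowest and the untransfected arrays again the highest. Against untransfected cells CDC6 fell with the scrambled mimic in both lines, by 0.45 ± 0.080 in PC3 (limma adjusted p = 0.00704) and by 0.56 ± 0.11 in DU145 (adjusted p = 0.0206). With miR-224 it fell below the scrambled level in PC3 (-0.27 ± 0.080, adjusted p = 0.0384), against 0.09 ± 0.11 in DU145, and the difference between the lines of -0.37 ± 0.13 did not pass (adjusted p = 0.205).

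MCM6 encodes another subunit of the helicase. Its PC3 levels were 8.20 and 8.32 with miR-224, 8.60 and 8.60 with miR-452, 8.29 and 8.23 with the scrambled mimic, and 9.02 and 8.90 in untransfected cells. In DU145 the levels were 8.27 and 8.13 with miR-224, 8.22 and 8.58 with miR-452, 8.22 with the scrambled mimic, and 8.84 and 8.87 in untransfected cells. The scrambled arrays lay inside the range of the miR-224 arrays in both lines, far under the untransfected arrays, and miR-452 lay between in PC3. With the scrambled mimic MCM6 was lower than in untransfected cells by 0.70 ± 0.082 in PC3 (limma adjusted p = 0.00162) and by 0.64 ± 0.15 in DU145 (adjusted p = 0.0307). The miR-224 change against the scrambled mimic was 0.00 ± 0.082 in PC3 and -0.02 ± 0.15 in DU145. With miR-452 MCM6 rose above the scrambled level in PC3 (0.33 ± 0.082, adjusted p = 0.0394), and the DU145 change of 0.18 ± 0.15 did not pass.

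Among the other helicase genes, MCM5 and MCM7 fell with miR-224 in PC3 by 0.55 ± 0.080 and 0.41 ± 0.087 against the scrambled mimic (limma adjusted p = 0.000990 and 0.00813). Their DU145 changes were -0.08 ± 0.13 and 0.01 ± 0.12. MCM10, which helps to start unwinding, had -0.32 ± 0.12 in PC3 and -0.43 ± 0.11 in DU145 and passed in neither line (adjusted p = 0.106 and 0.0885).

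**Figure D2:**
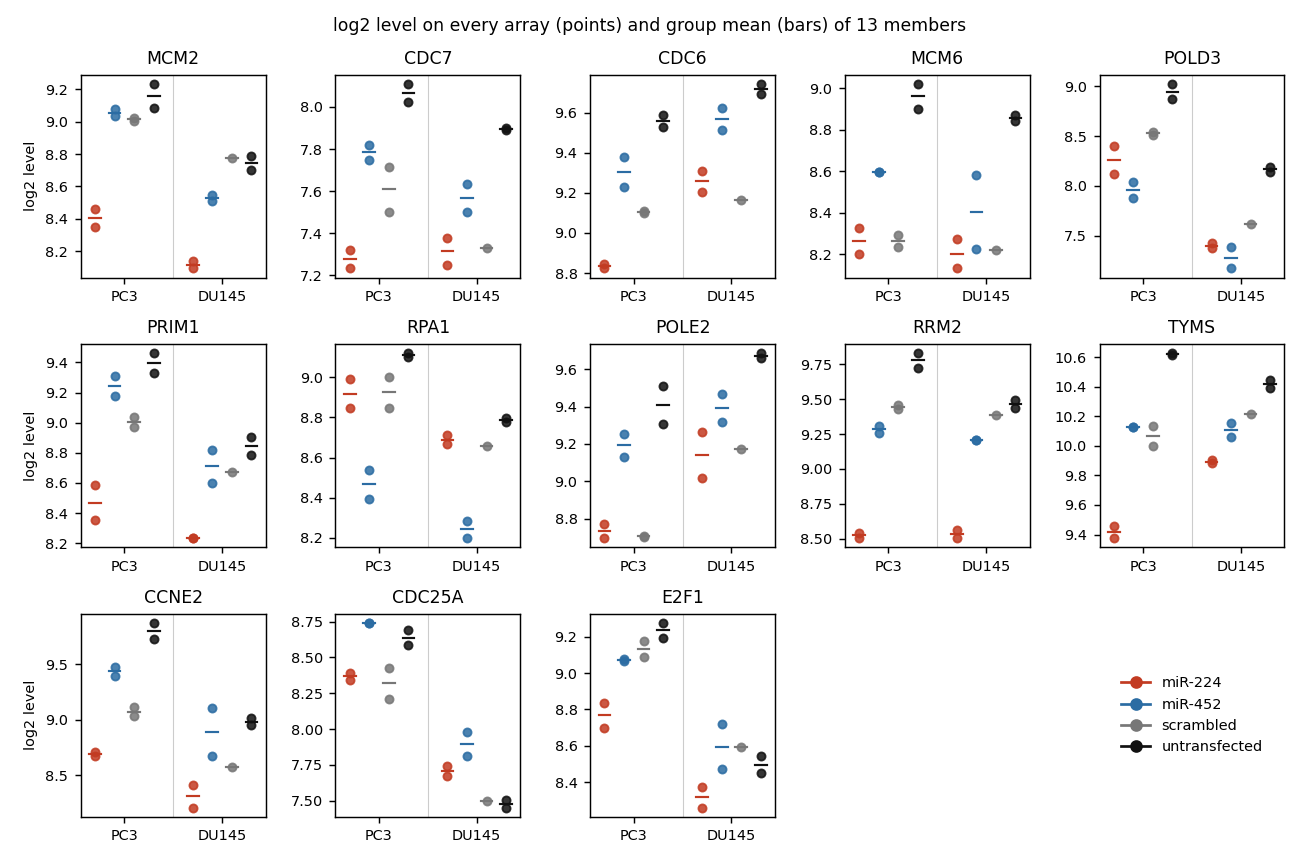
Points give the log2 level of 13 genes on every array and bars the group mean, with miR-224, miR-452, scrambled and untransfected from left to right in PC3 and then in DU145. RRM2 and MCM2 are lowest with miR-224 in both lines, RPA1 is lowest with miR-452 in both lines, and MCM6 is about as low with the scrambled mimic as with miR-224.

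Of the polymerase and fork genes, PRIM1, the catalytic subunit of primase, read 8.35 and 8.58 in PC3 with miR-224, 9.31 and 9.18 with miR-452, 8.97 and 9.04 with the scrambled mimic, and 9.46 and 9.33 in untransfected cells. In DU145 PRIM1 read 8.24 and 8.23 with miR-224, 8.60 and 8.82 with miR-452, 8.67 with the scrambled mimic, and 8.90 and 8.79 in untransfected cells. The miR-224 arrays lay below every other array of their line. PRIM1 fell with miR-224 against the scrambled mimic by 0.54 ± 0.096 in PC3 (limma adjusted p = 0.00323), and the DU145 change of -0.44 ± 0.12 was of like size but did not pass (adjusted p = 0.124). The difference between the lines was -0.10 ± 0.16 (adjusted p = 0.901).

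PCNA, the sliding clamp, fell with miR-224 in PC3 by 0.50 ± 0.077 against the scrambled mimic (limma adjusted p = 0.00142), with -0.22 ± 0.16 in DU145 (adjusted p = 0.680). The clamp loader genes RFC2 and RFC4 fell in PC3 by 0.39 ± 0.086 and 0.31 ± 0.081 (adjusted p = 0.00993 and 0.0220). For the catalytic subunits of the polymerases, the PC3 log2 changes were 0.14 ± 0.11 for POLA1, 0.04 for POLD1 and 0.09 for POLE. Accessory subunits had -0.07 (POLA2), 0.03 (POLE2) and -0.26 (POLD3), and none of these genes was called. A level near the scrambled one was thus not particular to catalytic subunits, and PRIM1, itself catalytic, fell.

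POLD3, an accessory subunit of polymerase delta, had the largest fall of the 49 with miR-452 against untransfected cells in both lines. It read 8.12 and 8.40 in PC3 with miR-224, 7.88 and 8.04 with miR-452, 8.51 and 8.54 with the scrambled mimic, and 9.03 and 8.87 in untransfected cells. In DU145 POLD3 read 7.42 and 7.38 with miR-224, 7.17 and 7.39 with miR-452, 7.62 with the scrambled mimic, and 8.19 and 8.14 in untransfected cells. All transfected arrays lay below the untransfected ones, the miR-452 arrays lay below the scrambled arrays in both lines, and miR-224 and miR-452 overlapped in DU145. Against untransfected cells POLD3 fell with miR-452 by 0.99 ± 0.10 in PC3, a fold of 0.505 (limma adjusted p = 0.000186), and by 0.89 ± 0.096 in DU145 (adjusted p = 0.00144). Against the scrambled mimic it fell with miR-452 by 0.56 ± 0.10 in PC3 (adjusted p = 0.00898), and the DU145 change of -0.34 ± 0.12 did not pass (adjusted p = 0.182).

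RPA1, the large subunit of the single-strand binding protein RPA, read 8.85 and 8.99 in PC3 with miR-224, 8.54 and 8.39 with miR-452, 9.0 and 8.85 with the scrambled mimic, and 9.12 and 9.10 in untransfected cells. Its DU145 levels were 8.67 and 8.71 with miR-224, 8.20 and 8.29 with miR-452, 8.66 with the scrambled mimic, and 8.78 and 8.80 in untransfected cells. The miR-452 arrays lay below every other array in both lines, and miR-224 was close to the scrambled mimic. RPA1 fell with miR-452 against untransfected cells by 0.64 ± 0.090 in PC3 (limma adjusted p = 0.000981) and by 0.54 ± 0.084 in DU145 (adjusted p = 0.00364). Against the scrambled mimic it fell by 0.46 ± 0.090 in PC3 (adjusted p = 0.0128), and the DU145 change of -0.41 ± 0.10 did not pass (adjusted p = 0.0722). RPA2, its middle subunit, had -0.26 ± 0.082 in PC3 and -0.47 ± 0.11 in DU145 for the same comparison (adjusted p = 0.0996 and 0.0595).

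POLE2, an accessory subunit of polymerase epsilon, read 8.70 and 8.77 in PC3 with miR-224, 9.13 and 9.25 with miR-452, 8.70 and 8.71 with the scrambled mimic, and 9.51 and 9.31 in untransfected cells. In DU145 POLE2 read 9.26 and 9.02 with miR-224, 9.32 and 9.47 with miR-452, 9.17 with the scrambled mimic, and 9.66 and 9.69 in untransfected cells. In both lines miR-452 lay between the scrambled and the untransfected arrays, and miR-224 overlapped the scrambled mimic. POLE2 was lower with the scrambled mimic than in untransfected cells by 0.71 ± 0.089 in PC3 (limma adjusted p = 0.00205) and by 0.50 ± 0.13 in DU145 (adjusted p = 0.0393). With miR-452 it rose by 0.49 ± 0.089 against the scrambled mimic in PC3 (adjusted p = 0.00833), with 0.22 ± 0.13 in DU145, which did not pass.

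The largest fall with miR-224 against the scrambled mimic in both lines was that of a nucleotide supply gene. RRM2, the regulatory subunit of ribonucleotide reductase that is made in S phase, read 8.51 and 8.54 in PC3 with miR-224, 9.26 and 9.31 with miR-452, 9.43 and 9.46 with the scrambled mimic, and 9.83 and 9.73 in untransfected cells. In DU145 RRM2 read 8.56 and 8.50 with miR-224, 9.21 and 9.21 with miR-452, 9.39 with the scrambled mimic, and 9.44 and 9.50 in untransfected cells. In both lines the 4 groups kept the same order without overlap, and miR-224 stood apart by the widest gap. RRM2 fell with miR-224 against the scrambled mimic by 0.92 ± 0.077 in PC3, a fold of 0.529 (limma adjusted p = 4.68e-05), and by 0.85 ± 0.10 in DU145, a fold of 0.554 (adjusted p = 0.00448). The difference between the lines was -0.07 ± 0.12 (adjusted p = 0.912). RRM1, the large subunit of the same enzyme, had -0.10 in PC3 and -0.22 in DU145 in this comparison and passed in neither line.

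TYMS, thymidylate synthase, read 9.46 and 9.38 in PC3 with miR-224, 10.13 and 10.13 with miR-452, 10.13 and 10.00 with the scrambled mimic, and 10.63 and 10.62 in untransfected cells. The DU145 levels of TYMS were 9.90 and 9.88 with miR-224, 10.06 and 10.15 with miR-452, 10.21 with the scrambled mimic, and 10.39 and 10.44 in untransfected cells. The miR-224 arrays were the lowest and the untransfected arrays the highest in both lines, with a wider range in PC3. With miR-224 TYMS fell against the scrambled mimic by 0.65 ± 0.079 in PC3 (limma adjusted p = 0.000397), and the DU145 change of -0.32 ± 0.10 did not pass (adjusted p = 0.191). TK1, thymidine kinase, fell in PC3 by 0.47 ± 0.084 (adjusted p = 0.00317), with -0.24 ± 0.10 in DU145 (adjusted p = 0.338).

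CCNE2, one of the cyclin E genes, read 8.71 and 8.67 in PC3 with miR-224, 9.39 and 9.48 with miR-452, 9.03 and 9.11 with the scrambled mimic, and 9.87 and 9.72 in untransfected cells. In DU145 CCNE2 read 8.42 and 8.21 with miR-224, 8.67 and 9.10 with miR-452, 8.58 with the scrambled mimic, and 9.01 and 8.95 in untransfected cells. The order miR-224, scrambled, miR-452, untransfected held without overlap in PC3, whereas in DU145 the miR-452 arrays spread across the untransfected range. Against the scrambled mimic CCNE2 moved opposite ways with the mimics in PC3, falling by 0.38 ± 0.083 with miR-224 (limma adjusted p = 0.00865) and rising by 0.36 ± 0.083 with miR-452 (adjusted p = 0.0273). The DU145 values were -0.26 ± 0.17 and 0.31 ± 0.17, and neither passed. Set directly against miR-452, miR-224 lowered CCNE2 by 0.75 ± 0.083 in PC3 (adjusted p = 0.000133) and by 0.57 ± 0.14 in DU145 (adjusted p = 0.0394).

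CDC25A, the phosphatase that activates cyclin-dependent kinase, read 8.34 and 8.39 in PC3 with miR-224, 8.74 and 8.74 with miR-452, 8.43 and 8.21 with the scrambled mimic, and 8.69 and 8.59 in untransfected cells. In DU145 CDC25A read 7.74 and 7.67 with miR-224, 7.81 and 7.98 with miR-452, 7.50 with the scrambled mimic, and 7.51 and 7.45 in untransfected cells. The miR-452 arrays were the highest of both lines, and in DU145 the miR-224 arrays also lay above the controls. With miR-452 CDC25A rose by 0.42 ± 0.089 against the scrambled mimic in PC3 (limma adjusted p = 0.0183), with 0.40 ± 0.11 in DU145 (adjusted p = 0.109). It was the only member that rose against untransfected cells in any comparison, by 0.42 ± 0.092 with miR-452 in DU145 (adjusted p = 0.0126).

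E2F1, a transcription factor of the G1/S switch, read 8.70 and 8.84 in PC3 with miR-224, 9.08 and 9.07 with miR-452, 9.18 and 9.09 with the scrambled mimic, and 9.28 and 9.19 in untransfected cells. Its DU145 levels were 8.26 and 8.37 with miR-224, 8.47 and 8.72 with miR-452, 8.59 with the scrambled mimic, and 8.45 and 8.54 in untransfected cells. The miR-224 arrays lay lowest in both lines, and the other groups lay close together. E2F1 fell with miR-224 against the scrambled mimic by 0.36 ± 0.082 in PC3 (limma adjusted p = 0.0106), and the DU145 change of -0.28 ± 0.13 did not pass (adjusted p = 0.395). Among the 15 members that fell with miR-224 in PC3 and have a promoter window, 9 held the E2F letters, against 12 of the 27 other members with one. The median log2 change was -0.11 with the letters and -0.18 without them.

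The comparison of miR-452 with the scrambled mimic moved few members. In PC3, POLD3 and RPA1 fell while POLE2, CDC25A, CCNE2, MCM6 and RFC4 rose, 7 of 49 (14.3%). Of all genes 2.33% fell and 2.89% rose. The median log2 change of the 49 was 0.05. The count was 3 without scrambled array b, 4 without scrambled array c, 2 without miR-452 array b and 1 without miR-452 array c, and that 1 was lower. In DU145 limma called none of the 49, where 2.10% of all genes passed in either direction. At an unadjusted p under 0.05, 6 of the 49 were lower and 3 higher, against 1850 and 999 of all 18377 genes. Leaving out DU145 miR-452 array a gave 3 and leaving out array c gave 6, all 6 of them lower. Of the 49, 15 were below the scrambled level in both lines and 14 above it in both, and the rest differed in sign between the lines. The 5 genes that rose in PC3 had positive DU145 changes (0.22 for POLE2, 0.40 for CDC25A, 0.31 for CCNE2, 0.18 for MCM6 and 0.10 for RFC4), and the genes that fell had negative ones.

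Tested as a difference between lines, no member passed for miR-224 against the scrambled mimic (limma), where 1.15% of all genes did. At an unadjusted p under 0.05, 5 of the 49 were lower in PC3, against 572 of all 18377 genes. None passed for miR-452, where 0.620% of all genes did. For miR-452, 5 of the 49 were higher in PC3 at an unadjusted p under 0.05, against 1350 of all 18377 genes. Across the 49 genes the changes in PC3 and DU145 correlated with r of 0.72 for miR-224 and 0.67 for miR-452 against the scrambled mimic, and 0.80 for the scrambled mimic against untransfected cells. The genes are not independent, and within a line the comparisons share control arrays. With miR-224, 32 of 49 were below the scrambled level in both lines and 10 above it in both. Neither r nor counts of shared direction were worked out over all genes for any comparison. Whether the lines are more alike for the members than for other genes was therefore not tested.

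**Figure D3:**
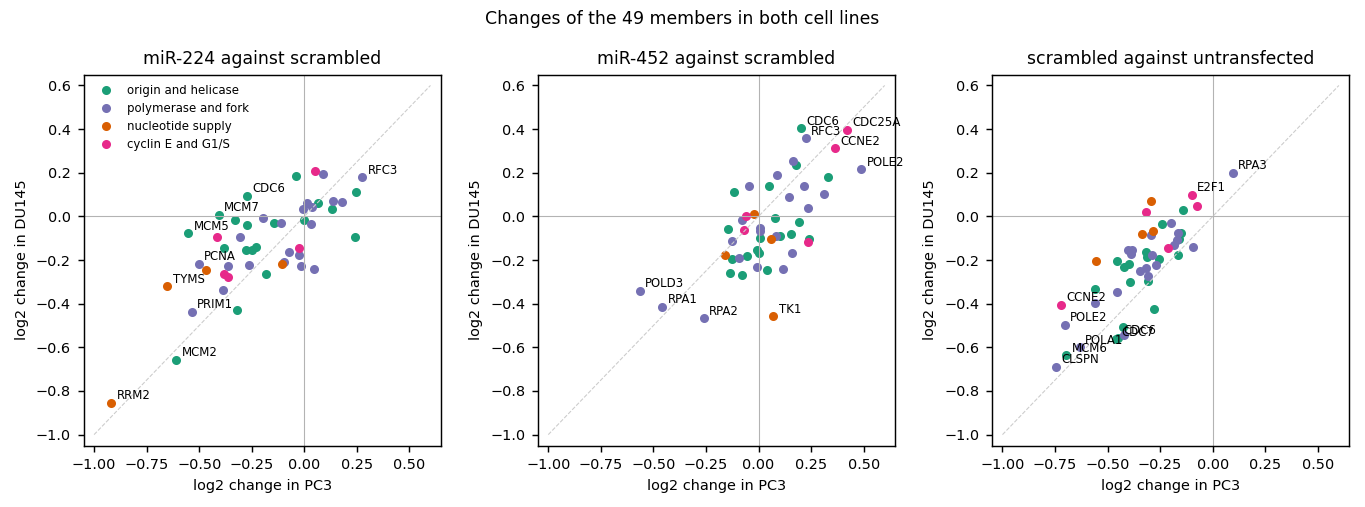
Each point is 1 of the 49 genes, coloured by role, with its log2 change in PC3 across and in DU145 upward, for miR-224 against scrambled, miR-452 against scrambled and scrambled against untransfected from left to right; the dashed line marks equal change. RRM2 lies at -0.92 and -0.85 and MCM2 at -0.61 and -0.66 in the first panel, and in the last panel 43 genes lie below 0 in both lines.

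Both mimics were also set directly against each other. With miR-224, 23 members were lower and 2 higher than with miR-452 in PC3 (51.0% of 49), where 5.99% of all genes were lower and 12.5% higher. All 5 cyclin E and G1/S genes were among those lower (CCNE1, CCNE2, E2F1, E2F2 and CDC25A), and so were 9 of 19 origin and helicase genes, 6 of 21 polymerase and fork genes and 3 of 4 nucleotide supply genes. The genes higher with miR-224 were RPA1 (0.45 ± 0.090, limma adjusted p = 0.00481) and GINS4, a subunit of the GINS complex (0.37 ± 0.12, adjusted p = 0.0456). The count was 16 without miR-452 array b and 15 without miR-452 array c. In DU145, MCM2, PRIM1, CHAF1B, RRM2 and CCNE2 were lower and RPA1 higher (12.2% of 49), where 2.38% of all genes were lower and 3.53% higher. Without miR-452 array c 3 were lower and 5 higher in DU145, the count was 10 without miR-452 array a, 1 without either of the miR-224 arrays, and 3 without either of the untransfected arrays. RPA1 was higher with miR-224 by 0.45 ± 0.084 in DU145 (adjusted p = 0.0150), close to its PC3 value.

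Much of the replication set was lower with the scrambled mimic than in untransfected cells. The mimic and the transfection reagent cannot be told apart in this comparison. In PC3, 30 of 49 fell and none rose (61.2%), where 10.9% of all genes fell and 3.32% rose, and the median log2 change was -0.32 against 0.00 over all genes. In DU145, 10 fell and none rose (20.4%), where 9.22% of all genes fell, with a median of -0.19 against 0.03 over all genes. Most PC3 calls were lost without untransfected array b or without scrambled array c, and all DU145 calls without either of the untransfected arrays. The median log2 changes were then -0.31 and -0.27 in PC3, and -0.19 in DU145 in both cases. Quantile normalization within the line, which makes the spread of all arrays of a line equal, left 13 in PC3 and 1 in DU145, with medians of -0.20 and -0.05. The largest falls in PC3 were CLSPN (-0.75 ± 0.10), CCNE2 (-0.72 ± 0.083), POLE2 (-0.71 ± 0.089) and MCM6 (-0.70 ± 0.082), with limma adjusted p at most 0.00278. CLSPN, claspin, which links the fork to the checkpoint kinase, is measured by 2 features, and both were lower in every transfected group than in untransfected cells. In DU145 CLSPN fell by 0.69 ± 0.16, POLA1, the catalytic subunit of polymerase alpha, by 0.60 ± 0.12 and ORC2, of the origin recognition complex, by 0.51 ± 0.11 (adjusted p = 0.0308, 0.0215 and 0.0274).

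The set was also lower with both microRNA mimics than in untransfected cells, in comparisons that share the untransfected arrays with the scrambled one. With miR-224, 38 of 49 fell in PC3 (77.6%), where 6.85% of all genes fell, and 24 of 49 fell in DU145, where 15.5% did. The medians were -0.47 in PC3 and -0.32 in DU145. With miR-452, 25 of 49 fell in PC3 (51.0%), where 14.1% of all genes fell, and in DU145 26 fell and CDC25A rose (55.1%), where 19.9% of all genes fell and 8.31% rose. The medians with miR-452 were -0.27 in PC3 and -0.30 in DU145. Under quantile normalization within the line the medians were -0.41 in PC3 and -0.19 in DU145 with miR-224, and -0.16 in PC3 and -0.09 in DU145 with miR-452. For miR-224 the PC3 count was 21 without miR-224 array a and 23 without untransfected array b, and the DU145 count was 11 without miR-224 array c, 10 without untransfected array b and 8 without untransfected array c. For miR-452 the PC3 count was 14 without miR-452 array b, 12 without miR-452 array c and 7 without untransfected array b, and the DU145 count was 9 without miR-452 array a, 4 without untransfected array b and 3 without untransfected array c. Under quantile normalization within the line miR-452 had 15 calls in PC3 and 9 in DU145.

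The members that fell in all 3 transfected groups of both lines numbered 5, namely CDC7, CLSPN, MCM6, POLA1 and POLD3. In PC3 16 members fell in all 3 transfected groups, and 5 fell in none (CCNE1, CHAF1A, LIG1, POLD1 and RPA3). In DU145 6 fell in all 3 (CDC7, CLSPN, MCM6, ORC2, POLA1 and POLD3), and 15 fell in none, among them E2F1, E2F2, CDT1, FEN1 and RRM1. Of all genes 1.68% fell in all 3 groups of PC3, 4.22% in all 3 of DU145 and 0.441% in all 6. These counts depend on which arrays are kept. All scrambled calls in DU145 were lost without either of the untransfected arrays, so that no member then fell in all 3 groups. Most scrambled calls in PC3 were lost without untransfected array b. The median log2 changes with the scrambled mimic hardly moved. They were -0.19 in DU145 with all arrays and in both refits, and -0.32 and -0.31 in PC3. Each refit also has fewer residual degrees of freedom, so lost calls alone do not show that an array carries the result. LIG1, the ligase that joins lagging strand fragments, had log2 changes between -0.19 and -0.08 in the 6 comparisons.

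**Figure D4:**
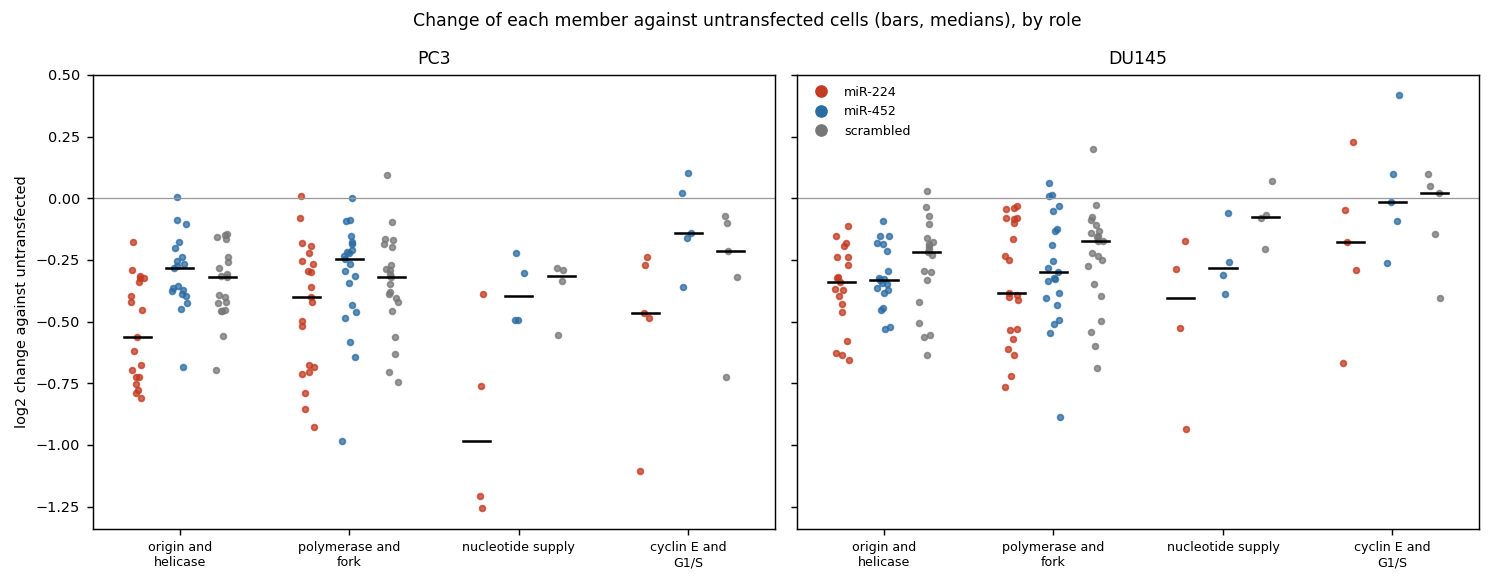
Points give the log2 change of each gene against untransfected cells for miR-224, miR-452 and the scrambled mimic from left to right within each role, and bars the median of the role, in PC3 and DU145. The 4 nucleotide supply genes have the lowest median with miR-224 in PC3, -0.98, and CDC25A with miR-452 in DU145 is the highest point, 0.42.

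The change with miR-224 against untransfected cells was lower in PC3 than in DU145 for 7 of 49 members (14.3%), where 0.794% of all genes passed in that direction. These were MCM5, MCM7, GINS2, RFC4, TYMS, TK1 and CDC25A, and TYMS had the largest difference, -0.68 ± 0.11 (limma adjusted p = 0.00487). Without 1 array of the groups compared the count was 3 (PC3 untransfected b, PC3 miR-224 a or DU145 miR-224 a), 2 (DU145 untransfected c) or 1 (PC3 untransfected c, PC3 miR-224 b, DU145 untransfected b or DU145 miR-224 c). For miR-452 against untransfected cells no member differed between the lines (limma), where 2.88% of all genes did. At an unadjusted p under 0.05, 4 of the 49 were lower in PC3, against 836 of all 18377 genes.

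Other genes of the pathway, 65 regulators and replication factors outside the 49, are given by the same test. With miR-224 against the scrambled mimic in PC3, 12 of 65 fell and 6 rose (of all genes 4.65% fell and 12.1% rose), with CDK4, a G1 kinase, at -0.60 ± 0.087, SAMHD1, a hydrolase that breaks down deoxynucleotides, at 0.96 ± 0.11 and RB1, the retinoblastoma repressor of E2F, at 0.52 ± 0.086 (limma adjusted p at most 0.00211). In DU145 RNASEH2A (-0.60 ± 0.11) and ASF1B (-0.55 ± 0.10), a ribonuclease subunit and a histone chaperone, were the 2 that passed. They are 3.08% of the 65, where 1.31% of all genes fell. With miR-452 the G1 kinase gene CDK6 rose in PC3 (1.00 ± 0.095, adjusted p = 0.000128) and in DU145 (0.83 ± 0.12, adjusted p = 0.0143). Scrambled cells had less CDK6 than untransfected ones (-0.40 ± 0.095 in PC3, -0.45 ± 0.12 in DU145). In PC3 7 of 65 rose and none fell, where 2.89% of all genes rose. In DU145 1 of 65 rose and 3 fell, where 2.10% of all genes passed in either direction. The 3 were RNASEH2A (-0.69 ± 0.11), CDKN2A (-0.56 ± 0.10) and DTYMK (-0.49 ± 0.10). The RNASEH2A change was higher in PC3 than in DU145 by 0.66 ± 0.12. SAMHD1 rose with miR-452 in PC3 too (0.90 ± 0.11, adjusted p = 0.000638). It was itself lower with the scrambled mimic than in untransfected PC3 cells (-0.49 ± 0.11, adjusted p = 0.0173), and so was RB1 (-0.34 ± 0.086). Against untransfected PC3 cells SAMHD1 was higher by 0.47 ± 0.11 with miR-224 and by 0.41 ± 0.11 with miR-452. Its change against the scrambled mimic was higher in PC3 than in DU145 by 0.93 ± 0.17 with miR-224, which passed. The line difference of 0.78 ± 0.17 with miR-452 did not pass. With the scrambled mimic against untransfected cells, 25 of 65 fell and 2 rose in PC3 (of all genes 10.9% fell and 3.32% rose), and 19 fell and none rose in DU145 (9.22% of all genes fell).

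A list of 34 mitosis genes and one of 44 replication-dependent histone genes were set beside the 49, without a test between lists. With the scrambled mimic against untransfected cells 24 of 34 mitosis genes fell in PC3 and 13 of 34 in DU145 (limma). Of the 44 histone genes 1 fell and 1 rose in PC3, and 0 fell and 1 rose in DU145. Of all genes 10.9% fell in PC3 and 9.22% in DU145. At an unadjusted p under 0.05, 6 histone genes were lower and 2 higher in PC3, and 1 lower and 9 higher in DU145. Of all 18377 genes 3925 were lower and 2284 higher in PC3 at that cutoff, and 3664 and 2511 in DU145. For miR-224 against the scrambled mimic in PC3, 28 of 44 histone genes and 6 of 34 mitosis genes fell, with medians of -0.49 and -0.01. No histone gene and 1 mitosis gene rose, where 4.65% of all genes fell and 12.1% rose. In DU145 5 of 44 histone genes and 0 of 34 mitosis genes fell with miR-224, where 1.31% of all genes fell. At an unadjusted p under 0.05, 1 mitosis gene was lower and 9 higher, against 1337 and 1101 of all 18377 genes. The median log2 change of the mitosis genes was 0.10. In PC3 5 of 44 histone genes fell and 1 rose with miR-452 against the scrambled mimic. Of all genes 2.33% fell and 2.89% rose. In DU145 8 of 44 fell and none rose with miR-452, where 2.10% of all genes passed in either direction. With miR-452 1 mitosis gene fell in each line and none rose. Histone genes are near-identical copies of each other, so their probes may share signal.

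**Figure D5:**
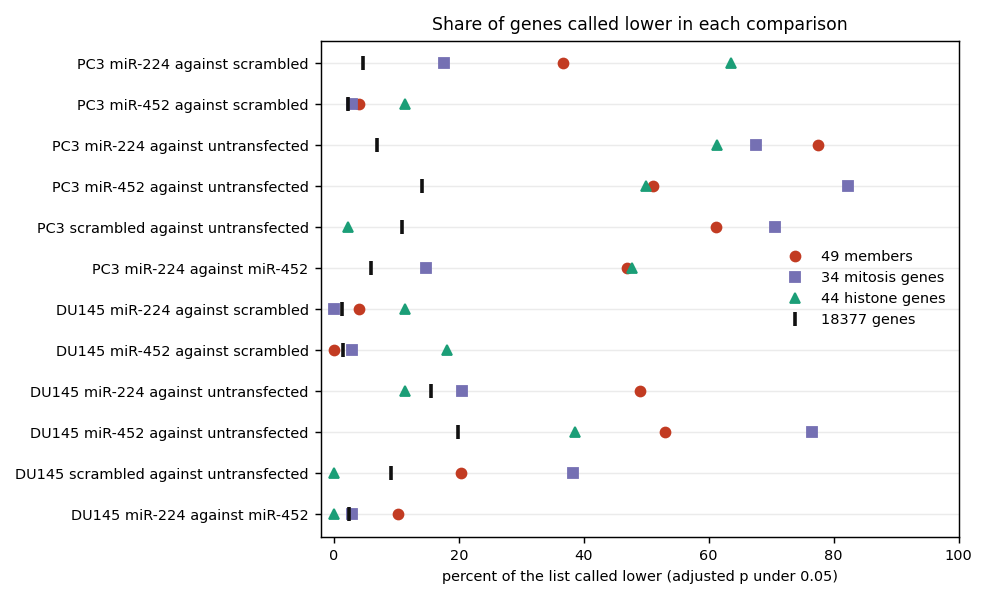
Points give the percent of each list called lower in each comparison (limma, adjusted p under 0.05) for the 49 members, 34 mitosis genes, 44 histone genes and all 18377 genes. The members stand at 36.7% for miR-224 against scrambled in PC3 and 4.08% in DU145, and at 77.6% for miR-224 against untransfected in PC3.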

How the data were processed

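The deposited series matrix holds log2 values that the authors made by RMA16 in GeneSpring GX 11.0, for each line separately, per the series' design text. The genome build and probe set definition are not given in the sources used here. The name RMA16 is understood to mean that 16 is added before the log, which the text does not state. Every value was above 4, and folds of dim genes would then be understated. Features with 1 symbol were averaged per gene (18377 genes). Changes were tested in R 4.3.3 with limma 3.58.1 (lmFit and eBayes), as 4 group means per line, which leaves 4 (PC3) or 3 (DU145) residual degrees of freedom, and between lines in a fit of all 15 arrays, which leaves 7, two-sided, with Benjamini-Hochberg adjustment over all genes of a comparison. The lone DU145 scrambled array is assumed to vary like the other DU145 groups. The members, lists and alternatives were chosen with earlier results of these data known. Genes named with full values had the lowest mean rank over lines of the moderated F test p (4 helicase, 4 polymerase, 2 nucleotide and 3 cyclin genes). Others were named for their role. The fits were tested on simulated data. Alternatives were quantile normalization, a replicate block, 1 fit of all arrays, a filter on dim genes, a trended robust prior and leaving out each array. Array letters were shared between groups. Of 13 same-letter pairs 4 had deviations correlated above 0.1 (r from -0.31 to 0.27). Where 2 groups share both letters, each letter gives the same r, so the 13 are not all distinct. The letters were not taken as pairs, but these values do not settle whether they are.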

Additional observations from a re-analysis of the deposited data

Results flagged for a closer look

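The log2 change with miR-224 against untransfected cells was lower in PC3 than in DU145 for 7 of 49 members (14.3%). Of all genes 0.794% passed in that direction, in a direct test of the difference by 1 limma fit of all 15 arrays. None of the 49 passed with a replicate block, and none differed between the lines against the scrambled mimic. The change against untransfected cells includes that of transfection itself. The values are the change in PC3 minus the change in DU145. TYMS had -0.68 ± 0.11 (adjusted p = 0.00487), with changes of -1.21 in PC3 and -0.53 in DU145. TK1 had -0.59 (adjusted p = 0.0112), with -0.76 in PC3 and -0.17 in DU145. Among helicase genes, MCM7 had -0.57 (adjusted p = 0.0259), with -0.73 in PC3 and -0.15 in DU145. MCM5 had -0.54 (adjusted p = 0.0317), with -0.81 in PC3 and -0.27 in DU145, and GINS2 had -0.44 (adjusted p = 0.0491), with -0.62 in PC3 and -0.18 in DU145. The clamp loader gene RFC4 had -0.46 (adjusted p = 0.0313), with -0.71 in PC3 and -0.25 in DU145. CDC25A had -0.50 (adjusted p = 0.0376), with -0.27 in PC3 and 0.23 in DU145, neither of which passed on its own (adjusted p = 0.0844 in PC3 and 0.0992 in DU145).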

How the results depend on the processing

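The array letters were not taken as pairs, though whether they pair the samples is not settled. A replicate block on them gave, for members called in PC3, 9 for miR-224 and 4 for miR-452 against scrambled. It gave 22 for miR-224 against untransfected and 13 for miR-224 against miR-452 in PC3. In DU145 the replicate block gave 0 for miR-224 against scrambled, 4 for miR-224, 1 for miR-452 and 0 for scrambled against untransfected, and 3 for miR-224 against miR-452. The line difference for miR-224 against untransfected had 0. A crossed pairing of the DU145 miR-452 letters, chosen after seeing the data, gave 8 for miR-224 against miR-452. Quantile normalization within the line gave 15 for miR-452 and 13 for scrambled against untransfected in PC3. In DU145 it gave 2 for miR-452 against scrambled, 9 for miR-452 and 1 for scrambled against untransfected, and 10 for miR-224 against miR-452. Line differences had 2 for miR-224 against scrambled and 14 against untransfected. With 1 fit of all arrays DU145 had 5 for miR-452 against scrambled and 10 for miR-224 against miR-452. For DU145 miR-452 against scrambled, leaving out dim genes gave 2 and a trended robust prior 3, and that prior gave 1 for the line difference in miR-452 against scrambled. The cause was not tested.

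Leaving out 1 array at a time, the PC3 counts ran from 10 to 18 for miR-224 and 1 to 6 for miR-452 against scrambled, 21 to 39, 7 to 27 and 3 to 29 for miR-224, miR-452 and scrambled against untransfected, and 15 to 26 for miR-224 against miR-452. The DU145 counts were 1 to 4, 0 to 6, 8 to 33, 3 to 34, 0 to 15 and 1 to 10 in the same order. Line differences ran from 0 to 1 for miR-224 and 0 to 0 for miR-452 against scrambled, and 1 to 9 for miR-224 and 0 to 0 for miR-452 against untransfected. The balance of directions turned for PC3 miR-452 against scrambled without miR-452 array c (1, lower) and for DU145 miR-224 against miR-452 without miR-452 array c (8, with 3 lower and 5 higher). Comparisons with DU145 scrambled cells cannot be formed without their 1 array. Leaving out an array of any other group also takes away 1 residual degree of freedom. The share of all genes called in each refit is not given here, so a loss of calls does not describe the members alone.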
